A study of Danio rerio with 12 samples.

Results

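The maternal-to-zygotic change in normal zebrafish embryos was followed by setting 3 wildtype sphere-stage libraries against 3 wildtype libraries of 4- to 8-cell embryos, 6 of the 12 libraries of the series, across all genes. All embryos were of the AB strain, and each library was made from poly-A RNA of 30 to 50 pooled whole embryos that carried no treatment and no transgene. The other 6 libraries, 3 at each stage, came from embryos of the smchd1 mz lof1 genotype. These embryos lack both the maternal and the zygotic product of smchd1, which encodes a chromatin protein, and are called MZ below. The numbers of the libraries name separate biological samples, and the labels do not say whether these came from separate clutches.

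A zebrafish egg is loaded with RNA made by the mother during oogenesis, and the first cleavages run on it while the genome of the embryo is nearly silent. At the midblastula transition the genome is switched on by Nanog, Pou5f3 and SoxB1 proteins such as Sox19b, which are themselves translated from maternal mRNA. A share of the maternal RNA is then degraded, partly by factors that are maternal and partly by products of the new transcription, such as the microRNAs of the miR-430 family. The 4- to 8-cell stage lies before this switch and the sphere stage shortly after it. Because poly-A RNA was sequenced, a gain or loss of the poly-A tail cannot be told apart from new transcription or decay. All levels are relative to the library, so that a lower level can be a smaller share of more RNA. In pools of whole embryos, fewer cells of a type and less RNA per cell cannot be told apart.

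The 4- to 8-cell libraries held 19247838 to 23681822 expected counts and the sphere libraries 16813724 to 17266229. Levels are given as CPM, counts scaled to a common library total with TMM factors, a correction for library composition, and levels of different genes are compared only in TPM, the share of transcripts, which is divided by transcript length. Pearson correlations of log2 CPM across genes were 0.966 to 0.978 within the 4- to 8-cell group, 0.962 to 0.973 within the sphere group and 0.833 to 0.870 between the stages. The 100 genes with the highest TPM held 17.6% to 21.0% of all TPM at 4 to 8 cells and 29.7% to 35.4% at sphere. Markers of blood, liver and differentiated tissue, which an early embryo lacks, were low, while those of follicle cells were not. The 15 blood markers summed to 3.22 to 8.30 CPM and then 6.99 to 18.1 CPM. The 24 markers of differentiated tissue, such as neurons and muscle, summed to 21.1 to 35.6 CPM and then 25.03 to 31.6 CPM. The 21 liver and yolk markers summed to 1.2 to 1.8 CPM and then 12.8 to 19.7 CPM, with fabp10a at 0 counts in all 6 libraries. The liver and yolk markers that could be tested, apoba and apoc1, which encode lipid-carrying apolipoproteins, were both newly made, at 4.35 ± 2.22 and 8.54 ± 2.01 CPM at sphere. Of the 19 follicle cell markers, which summed to 291 to 454 CPM and then 465 to 529 CPM, nearly all counts were from cyp11a1, cyp17a1 and fgfr4, genes of steroid synthesis and of fibroblast growth factor signalling. The means of these genes were 266, 130 and 0.259 CPM at 4 to 8 cells and 133, 120 and 250 CPM at sphere. The higher sum at sphere thus came from fgfr4.

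Of 16667 genes with a mean normalised count above 10, 6837 (41%) differed between the stages by edgeR's quasi-likelihood test at an adjusted p under 0.05, and DESeq2 called 7659 of 16624 (46.1%). In the sphere libraries 3461 genes (20.8%) were higher and 3376 (20.3%) lower. This balance depends on the scaling. The calls split into 2732 higher and 4284 lower with no scaling factor, 4401 and 2807 with upper quartile factors, and 1716 and 7425 by limma on log2(TPM + 1), where the median change of all genes was -0.48 instead of -0.02. All changes below are relative to the TMM scale unless TPM is named. For 9213 genes (55.3%) the 3 libraries of one stage lay wholly above those of the other.

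The genes were sorted into what was newly made, raised, kept, lowered and cleared. Newly made were 1025 genes (6.15%) that were called, rose over 2-fold and had a mean below 0.5 CPM at 4 to 8 cells. A further 970 (5.82%) rose over 2-fold from a maternal level of 0.5 CPM or more. Kept were 6185 genes (37.1%), whose 95% interval of the fold change lay wholly within 2-fold in either direction. Of the kept genes 1530 also passed the test, with changes smaller than 2-fold. On the falling side, 1879 genes (11.3%) were 2- to 8-fold lower and 104 (0.624%) were cleared, which means over 8-fold lower. The remaining genes either changed by less than 2-fold with a wider interval (1329, 7.97%) or had no call and an interval too wide to place them (5175, 31%). The median early level was 62.8 CPM for kept genes, 2.86 CPM for genes that could not be placed and 19.1 CPM for all. The kept class thus favours abundant genes. The class limits cut through a continuum: aqp11 with a mean of 0.499 CPM was counted as newly made and pkp1b with 0.501 CPM was not, and the log2 changes of H2BK1 and zfpm2b on either side of the clearance limit were -3.003 and -2.9997.

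**Figure D1:**
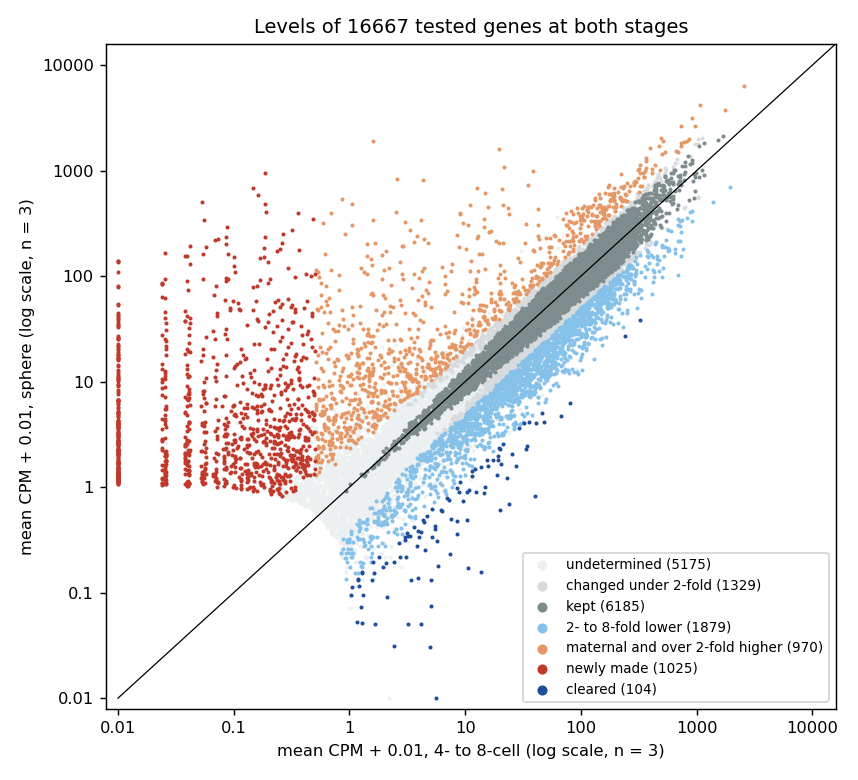
Mean CPM at 4 to 8 cells (x axis) and at sphere (y axis) of the 16667 tested genes, both on log axes after adding 0.01, with 1 point per gene coloured by class and the line of equal levels. The 1025 newly made genes stand at the left edge far above the line, the 6185 kept genes lie along it, and the 104 cleared genes are few and mostly below 100 CPM at 4 to 8 cells.

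Most of the counts of the sphere embryo still came from genes that had been kept. Kept genes took 63.0% ± 0.370 (SD, n = 3) of the counts at 4 to 8 cells and 60.6% ± 0.957 at sphere. Genes that were 2- to 8-fold lower fell from 13.9% ± 0.0148 of the counts to 4.47% ± 0.779. The 104 cleared genes went from 0.187% to 0.0154%, so that little of the maternal RNA belonged to genes lost more than 8-fold. Maternal genes that rose went from 5.35% ± 0.350 to 16.4% ± 1.60. Newly made genes went from 0.0142% to 1.85% ± 0.161. On the TPM scale, where short transcripts weigh more, genes that rose from a maternal level took 20.4% ± 1.28 and then 43.1% ± 2.64, and kept genes 46.7% ± 1.16 and then 34.5% ± 2.04. The classes were sorted by the stage change in these libraries, so the shares describe the sorting and test nothing.

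**Figure D2:**
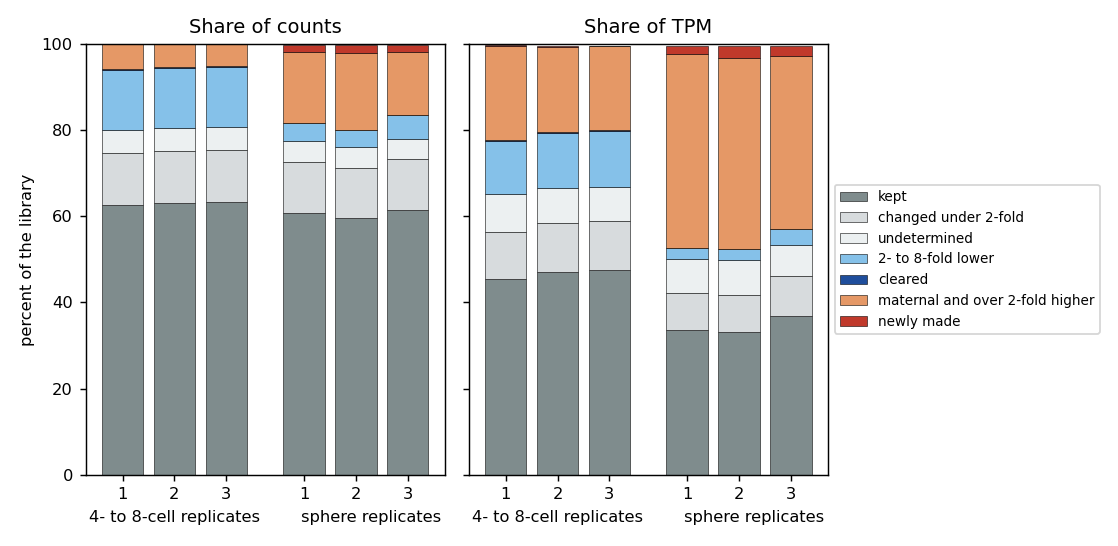
Percent of the counts (left) and of the TPM (right) that each class of genes took in each of the 6 wildtype libraries, stacked to the library total. Kept genes hold about the same share of counts at both stages, and the classes that rose from a maternal level and that were newly made widen in all 3 sphere libraries.

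Sphere replicate 3 lay nearer to the 4- to 8-cell libraries than the other 2 sphere libraries did. It was the lowest of the 3 sphere libraries for 521 of the 1025 newly made genes, with a median of 85.3% of the sphere mean, against 97.6% in replicate 1 and 113% in replicate 2. It was the highest for 1191 of the 1879 genes that were 2- to 8-fold lower, with a median of 114% of the mean. For kept genes the medians were 99.03% to 101% in all 3. Without this library 892 genes were counted as newly made, 142 as cleared and 5392 as kept. The values below include it.

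Genes newly made by the sphere stage rose from almost nothing. The median newly made gene had 0.0800 CPM at 4 to 8 cells and 3.05 CPM at sphere. In 201 of the 1025 no read was counted in any of the 3 early libraries, and in 228 only 1 to 3 reads. With the genes at 0 early set to their lower bound, the change was over 10-fold in 843 genes, over 100-fold in 282 and over 1000-fold in 60. Most remained scarce: 26 had below 1 CPM at sphere, 748 had 1 to 10 CPM, 208 had 10 to 100 CPM and 43 more than 100 CPM. No symbol was found for 203 of them (19.8%), against 7.43% of all tested genes. Genes named as zinc finger genes were 3.41% of the newly made and 4.02% of the raised maternal genes, against 1.45% of all and 1.03% of the kept genes.

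The newly made genes with the highest sphere TPM were nnr, inka1a, drll.3, krt18a.1, asb11, vgll4l, grhl3, znf1127, vox, a U1 small nuclear RNA gene, stm and SCARNA14. In drll.3, a zinc finger gene of the draculin family, CPM were 0.251, 0.138 and 0.144 at 4 to 8 cells and 882, 1096 and 853 at sphere. Its log2 change was 12.30 (SE 0.24, adjusted p = 4.33e-07 by edgeR), and no library came near the other stage. The gene inka1a, which encodes an inhibitor of the kinase Pak4, went from 0.0837, 0.185 and 0.192 CPM to 675, 606 and 478 CPM, 3726-fold higher. For stm (starmaker, best known for its role in building the otolith) 3 reads were counted in all at 4 to 8 cells against levels of 498, 704 and 296 CPM at sphere, a ratio of 10968 with a 95% counting interval of 3752 to 53186. Its sphere libraries spread more than those of drll.3, with replicate 3 lowest. For asb11, which encodes a SOCS box protein of the Notch pathway, the sphere CPM were 308, 412 and 311 and the ratio was 7584 (2595 to 36780). Intervals and lower bounds of this kind cover counting error only. They rest on reads pooled over the 3 libraries of a stage and leave out the spread between libraries. The reads also carried no molecular identifiers. The U1 gene and SCARNA14 stood in this list on TPM alone, with a mean of 2.11 and 0.928 CPM at sphere, because their transcripts are very short. For SCARNA14 the call was near the limit (adjusted p = 0.0497 by edgeR) and was not made by DESeq2 (adjusted p = 0.089).

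The regulators of the body plan rose steeply. Over 5 lists of mesendoderm, ventral, dorsal, ectodermal and enveloping layer genes, 112 of 140 listed genes passed the filter on low counts. Of these 81 (72.3%) rose and 12 (10.7%) fell, against 20.8% and 20.3% of all genes. In 44 of the 112 the gene was newly made, against 6.15% of all genes. The median log2 change was 5.17, against -0.02 over all genes tested. On log2(TPM + 1), which pulls in low levels, this median was 2.58. A gene that was silent early could pass the filter only through its sphere level. The median and the counts, here and for each list below, therefore describe only the genes that could be measured.

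Mesendoderm is the tissue that gives rise to muscle, blood, heart and gut, and its formation is triggered by Nodal ligands. Of 26 tested genes of 35 listed, 19 (73.1%) rose, against 20.8% of all genes. Newly made were 13 of the 26, against 6.15% of all genes. The T-box gene tbx16, needed for trunk mesoderm, had 0.251, 0.138 and 0.144 CPM at 4 to 8 cells and 471, 648 and 329 CPM at sphere (log2 change 11.33, SE 0.40, adjusted p = 2.19e-06 by edgeR). The Nodal ligand gene ndr2 went from 0.390 ± 0.0468 to 22.8 ± 5.51 CPM, and its downstream homeobox gene mixl1 from 2.92 ± 0.953 to 94.2 ± 33.1 CPM. The apelin receptor genes, which act in the migration of mesendoderm, rose with their ligand. For aplnrb no read was counted at 4 to 8 cells and the sphere CPM were 184, 113 and 117, at least 3060-fold higher. Its sister gene aplnra rose to 80.1 ± 16.6 CPM and the ligand gene apela to 57.7 ± 8.64 CPM. A single early read was counted for gata5, an endoderm and heart regulator, against 25.5, 37.0 and 13.6 CPM at sphere. The members that fell were mespaa and her7, genes of later somite formation, of which her7 went from 8.44 to 0.965 CPM.

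On the ventral side Bmp signals are high. Of 22 tested genes of 27 listed 15 (68.2%) rose and 4 (18.2%) fell, against 20.8% and 20.3% of all genes. The transcriptional repressors vox, vent and ved, which keep dorsal genes off ventrally, were all newly made. In ved no read was counted early and the sphere CPM were 121, 94.5 and 115, at least 2444-fold higher. For vox the CPM were 0.0837, 0 and 0 and then 181, 217 and 69.5, and for vent 0.0419, 0 and 0 and then 58.1, 101 and 32.0. In vox and vent sphere replicate 3 was well below the other 2 sphere libraries, and in ved the 3 were close together. The ligand gene bmp7a rose from 1.89 ± 0.657 to 94.0 ± 32.5 CPM, and 1 of the genes with the symbol BMP2 from 0.526 ± 0.137 to 109 ± 17.6 CPM. BAMBI, a decoy receptor that dampens Bmp signals, rose 10.2-fold. The epidermal regulators foxi1 and gata3 were newly made, at 36.9 ± 0.469 and 41.8 ± 8.54 CPM. The members that fell were the Bmp targets msx1b, id2a and id3 and 1 of 2 genes with the symbol SMAD6, with id2a going from 63.9 to 14.8 CPM.

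The dorsal side is the seat of the organiser. Of 22 tested genes of 26 listed 16 (72.7%) rose and 2 (9.09%) fell, against 20.8% and 20.3% of all genes. The median log2 change was 6.38, or 6.30 with genes at 0 early set to their lower bound. The Bmp antagonist gene chrd went from 0.377, 0.323 and 0.288 CPM to 100, 113 and 84.4 CPM (log2 change 8.20, SE 0.22, adjusted p = 9.14e-07 by edgeR). The notochord regulator noto rose 1108-fold to 90.8 ± 15.1 CPM. Antagonists of other signals appeared with them: the Nodal inhibitor gene lft2 had 1 early read and 43.7, 49.3 and 45.4 CPM at sphere, and the Wnt inhibitor gene dkk1b had 1 early read and 12.5, 14.2 and 12.6 CPM. Both were even across the sphere libraries. The Nodal gene ndr1, which the egg supplies, was at 4.08 ± 0.108 CPM early and rose 9.38-fold. Both genes with the symbol CXCR4, a chemokine receptor, rose, 59.5- and 66.6-fold, to about equal TPM of 157 and 156. The fallen members were 1 of 2 genes with the symbol WNT8A (24.3 to 10.9 CPM) and 1 with the symbol SIX3.

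In the ectodermal and neural list 17 of 22 tested genes of 26 rose (77.3%) and 2 fell (9.09%). Over all genes these shares were 20.8% and 20.3%. The neural plate regulators ZIC2, sox3 and irx7 started from a low maternal level and rose to 406 ± 68.7, 129 ± 27.3 and 98.9 ± 8.56 CPM, while sox19a was newly made. For foxd5 no read was counted early, and its sphere CPM of 40.7, 59.7 and 33.9 were at least 986-fold higher. The Krüppel-like factor genes klf17 and klf2b, which act in the epidermis, rose 274-fold and 94.0-fold.

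The enveloping layer is the outer epithelium of the blastula and its first differentiated tissue. Of 20 tested genes of 26 listed, 14 (70%) rose and 2 (10%) fell, against 20.8% and 20.3% of all genes. The keratin gene krt4 had 0.0837, 0.554 and 1.104 CPM early and 364, 356 and 227 CPM at sphere (log2 change 9.11, SE 0.54, adjusted p = 2.89e-05 by edgeR), and krt18a.1 went from 0.182 ± 0.0523 to 407 ± 93.5 CPM. The keratin gene krt8 was already at 9.07 ± 6.73 CPM, with 4- to 8-cell replicate 1 the highest at 16.8, and rose 42.6-fold. The grainyhead-like factors of barrier epithelia rose together: grhl3 from 0.350 ± 0.266 to 398 ± 47.7 CPM, and grhl1 from no read to 63.1, 54.9 and 46.6 CPM, at least 1214-fold higher. The tight junction gene cldne was newly made at 109 ± 28.7 CPM, whereas cldnd, the claudin gene of the egg, fell from 915 ± 133 to 413 ± 47.2 CPM.

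**Figure D3:**
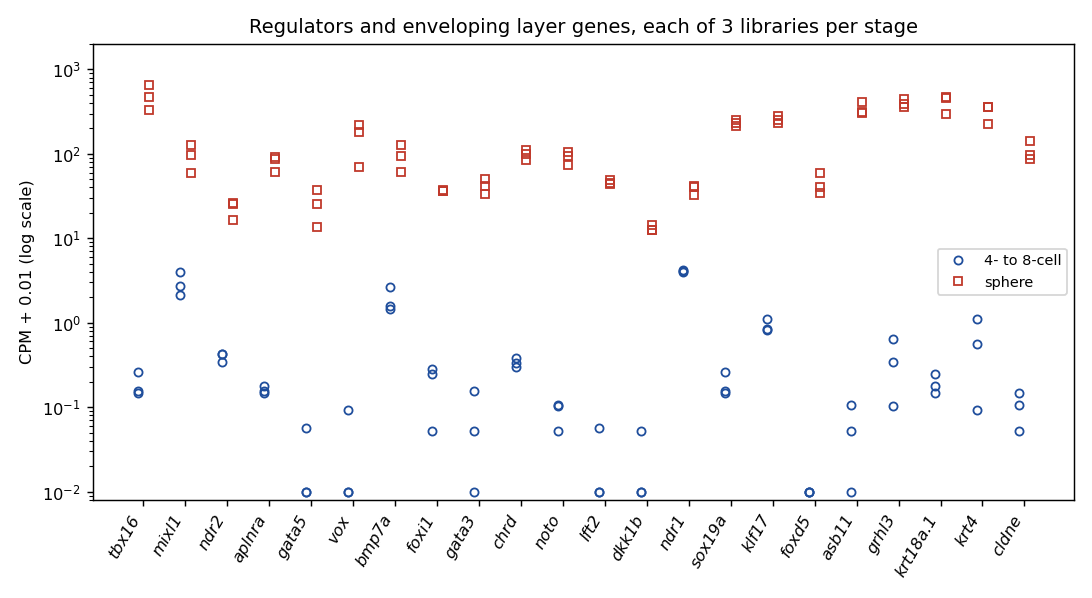
CPM plus 0.01 on a log axis in each of the 3 libraries per stage (circles 4- to 8-cell, squares sphere) for regulators of mesendoderm, ventral, dorsal and ectodermal fates and genes of the enveloping layer. In every gene plotted the 3 sphere libraries lie above the 3 early libraries, and only mixl1, bmp7a, ndr1, klf17 and krt4 have a mean of 0.5 CPM or more at 4 to 8 cells.

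A second set of genes rose from an RNA that the egg already held. Among the greatest rises here were those of akap12b, apoeb, krt4, slc25a55a, blf, SOX11 and klf17. The kinase-anchoring scaffold gene akap12b had 0.879, 1.11 and 2.78 CPM and then 1714, 2598 and 1424 CPM, a 1214-fold rise to the highest CPM among these genes. In TPM it was lower, at 339, than the zinc finger gene blf at 507 and the apolipoprotein gene apoeb at 462, since its transcript is long. Cell division genes of the somatic type were part of the set. The cyclin genes ccnd1 and ccne2 rose 189-fold and 23.7-fold, ccnd1 from 3.31, 2.08 and 7.58 CPM to 783, 1003 and 650 CPM, and the inhibitor gene cdkn1ca rose 10.5-fold. In the cell cycle list as a whole 25 of 69 tested genes (36.2%) were called higher and 20 (29.0%) lower, against 20.8% and 20.3% of all genes, with a median of 0.10. This balance turned to 19 higher and 23 lower without a scaling factor and to 10 and 35, with a median of -0.44, on log2(TPM + 1). Over all genes the balance turned likewise, to 2732 higher and 4284 lower, and to 1716 and 7425 with a median of -0.48. Among the MYC genes, mych (54.1-fold) and mycn (80.9-fold) rose, and mycb fell from 33.1 ± 3.56 to 9.60 ± 1.09 CPM.

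RNA processing genes rose broadly but by little. Of 64 genes of splicing and RNA binding 52 rose and 3 fell, that is 81.3% higher against 20.8% of all tested genes, with a median log2 change of 0.79. The median was also positive with no scaling factor (0.63, with 49 genes higher and 4 lower) and on log2(TPM + 1) (0.26), where fewer were called, 25 higher and 7 lower. The splicing factor gene srsf5a was the steepest of those named, at 27.7, 19.1 and 16.9 CPM and then 520, 547 and 358 CPM, 22.3-fold higher. The gene hnrnpa0b rose 9.23-fold, and the core spliceosome gene snrpb 2.09-fold, from 245 ± 22.3 to 511 ± 55.3 CPM. The 3 that fell were snrpg (25.9 to 11.4 CPM), snrpd2 (55.8 to 36.1 CPM) and hnrnpc (366 to 253 CPM). Small RNAs of high TPM were higher as well. For rn7sk, the RNA that holds the elongation factor P-TEFb inactive, TPM were 175 to 297 early and 3518 to 5887 at sphere. For rn7sl1, the RNA of the signal recognition particle, they were 3885 to 6185 and then 11250 to 13580. The libraries were made from poly-A RNA, so the levels of such small RNAs, U1 and SCARNA14 included, need not reflect their amounts in the embryo. All 7 U1 genes tested, of 47 identifiers, were newly made, against 6.15% of all genes. A copy scarce early could pass the filter on low counts only through its sphere level, which favours this class. The U1 genes are near-identical copies, so their counts are uncertain gene by gene. Other families of small RNA did not all rise. Of 8 tested small nucleolar RNA genes 1 was called higher, and of 8 tested Metazoa_SRP genes (signal recognition particle RNA) 5 were, against 20.8% of all genes. Of 41 U6 identifiers 0 could be tested.

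Of 33 tested immediate-early and stress genes of 41 listed, 14 (42.4%) rose, 5 (15.2%) fell and 14 were not called. Over all genes 20.8% rose and 20.3% fell. Newly made were 10 of them, against 6.15% of all genes. The phosphatase gene dusp6, a feedback target of fibroblast growth factor signals, went from 0.197 ± 0.150 to 94.2 ± 9.59 CPM, and JUN from 0, 0.231 and 0.192 CPM to 32.8, 16.2 and 19.5 CPM. The 2 genes with the symbol GADD45B reached 174 ± 11.3 and 37.5 ± 11.9 CPM, and the small heat shock gene hspb1 rose 108-fold from 3.00 ± 0.160 CPM. Of 24 tested genes of the p53 response 9 (37.5%) were called higher and 4 (16.7%) lower, against 20.8% and 20.3% of all genes, with a median of 0.21. On log2(TPM + 1) 7 were higher and 8 lower, with a median of -0.30. Over all 16667 genes 1716 were higher and 7425 lower on that scale, with a median of -0.48. In this list cdkn1a, the cell cycle inhibitor that p53 induces, had 15.2, 8.02 and 4.80 CPM at sphere, and the apoptosis gene bbc3 27.8, 11.7 and 10.6 CPM, with replicate 1 highest in both. The receptor gene fgfr4, listed as a follicle marker, was newly made at 250 ± 37.4 CPM. Genes of much later use stayed low. Of the 47 hox genes 9 could be tested and 0 rose (0 at an unadjusted p under 0.05, and 0 by DESeq2), while 2 (22.2%) fell, against 20.8% and 20.3% of all genes. With 9 genes tested, the list is too small to be set apart from all genes. Those that fell were hoxb1b and hoxb2a, from 2.75 and 1.34 CPM, of which DESeq2 called only hoxb1b (adjusted p = 0.075 for hoxb2a). The neuronal gene elavl3 reached 1.98 ± 0.527 CPM from 1 early read. The blood marker lcp1 had no early read and 1.104, 13.3 and 5.71 CPM at sphere.

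The factors that switch the genome on were maternal and mostly kept. In the list of 19 activators and their cofactors 13 (68.4%) were kept, 7 (36.8%) were called higher and 2 (10.5%) lower, and none was newly made. Over all genes these shares were 37.1%, 20.8% and 20.3%, not adjusted for level. Kept genes can also be called, so the counts overlap. The homeobox gene nanog had 894, 843 and 828 CPM early and 1968, 2160 and 1793 CPM at sphere (log2 change 1.21, SE 0.10, adjusted p = 0.000135 by edgeR). In TPM its level went from 844 to 1297. The gene pou5f3 rose 1.79-fold, from 530 ± 27.8 to 951 ± 202 CPM, and the Nodal effector foxh1 1.66-fold. By contrast, sox19b had 643, 521 and 560 CPM and then 550, 520 and 658 CPM, overlapping ranges with a 95% interval of the log2 change of -0.29 to 0.30. The T-box gene eomesa was as even, at 129 ± 2.26 and 134 ± 4.15 CPM. Of the coactivators, both genes with the symbol EP300 were kept, while CREBBP fell from 102 ± 5.002 to 50.4 ± 5.66 CPM. The elongation kinase gene cdk9 was called higher in CPM by 0.53 (adjusted p = 0.0433 by edgeR) but was at -0.082 on log2(TPM + 1), and its cyclin gene ccnt1 fell 1.60-fold. The list median was 0.32 on the TMM scale and -0.28 on log2(TPM + 1), beside -0.02 and -0.48 for all genes. Its sign thus depends on the scale, but it lay above the median of all genes on both. A second gene with the symbol YY1 rose 29.1-fold to 105 ± 28.1 CPM, next to a first that was kept at 35.9 ± 1.16 and 44.7 ± 5.93 CPM.

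Loss of over 8-fold was rare and fell on scarce RNAs. The median cleared gene went from 5.99 to 0.436 CPM. Among cleared genes with 10 CPM or more early, the largest decreases included those of ms4a17a.8, rgs5b, znf469, acod1, coa3b, kctd12b, lyrm4, her2, gbgt1l1, commd6 and bco1. The signalling regulator rgs5b had 10.8, 8.402 and 12.5 CPM and then 0.245, 0 and 0.243 CPM, 61.8-fold lower. The metabolic gene acod1, whose enzyme makes itaconate, went from 19.7, 16.6 and 24.1 CPM to 0.798, 0.513 and 0.486 CPM (log2 change -5.05, SE 0.33, adjusted p = 4.68e-05 by edgeR). Small mitochondrial factors were among them: coa3b, for cytochrome oxidase assembly, at 27.5 ± 1.09 and then 1.59 ± 0.420 CPM, and lyrm4, for iron-sulphur cluster assembly, at 19.0 ± 2.06 and then 1.28 ± 0.516 CPM. The carotene oxygenase gene bco1 fell 13.9-fold. For some of these the early pools differed much from each other. In kctd12b they had 1.93, 11.5 and 30.4 CPM, in her2 26.6, 10.4 and 7.10 CPM and in ms4a17a.8 16.7, 3.92 and 20.7 CPM, whereas coa3b and lyrm4 were even.

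Most of the genes that fell by more than 2-fold fell 2- to 8-fold, among them well-known genes of the oocyte and of the germ plasm. The egg and oocyte list had 22 of 55 tested genes lower (40%, against 20.3% of all), with a median of -0.35. In it 10 were higher (18.2%, against 20.8% of all) and 25 kept (45.5%, against 37.1% of all). The antiproliferative factor gene btg4, which guides deadenylation in the egg, had 709, 663 and 681 CPM and then 57.1, 94.2 and 156 CPM (log2 change -2.74, SE 0.33, adjusted p = 0.000595 by edgeR), with sphere replicate 3 the highest. The meiotic kinase gene mos fell 6.85-fold, the oogenesis-related gene org 6.07-fold, and zar1l, a translational repressor of maternal mRNA, 5.29-fold. Its relative zar1 fell 1.52-fold and was kept. The oocyte ligand gene bmp15 went from 169 ± 17.1 to 42.9 ± 14.5 CPM, and slbp2, a histone mRNA binding factor of the egg, from 432 ± 38.5 to 99.2 ± 24.5 CPM. In every one of these genes apart from zar1 the sphere libraries lay below all 4- to 8-cell libraries by more than 2-fold.

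Germ plasm is the maternal store that sets aside the germline. Of 25 listed genes 12 fell (48.0%), 2 rose (8%) and 12 were kept (48.0%). Over all genes these shares were 20.3%, 20.8% and 37.1%. The organiser of the germ plasm, buc, had 997, 949 and 804 CPM and then 315, 301 and 381 CPM, 2.76-fold lower. The carbonic anhydrase gene ca15b fell 4.00-fold, tdrd6a, a Tudor protein of the granules, 3.90-fold, and dazl, an RNA-binding factor of germ cells, 3.24-fold. Others such as ddx4 (194 and 230 CPM) and piwil1 (74.0 and 86.2 CPM) were kept. The 2 that were called higher were gtsf1 (1.43-fold) and 1 gene with the symbol KIF5B (1.36-fold), both at slightly negative values on log2(TPM + 1).

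Of 71 genes of mRNA decay and binding 50 were kept, 25 (35.2%) were called higher and 17 (23.9%) lower, against 20.8% and 20.3% of all genes. The balance depends on the scale, with 19 higher and 22 lower without a scaling factor and 5 and 40 on log2(TPM + 1). The same counts over all genes were 2732 higher and 4284 lower, and 1716 and 7425. The poly-A polymerase gene tent2, which lengthens the tails of stored mRNA, had 188, 199 and 191 CPM and then 51.7, 58.9 and 52.6 CPM (3.54-fold lower), drosha, which cuts microRNA precursors, fell 3.58-fold and lsm1, a decapping cofactor, 3.29-fold. Raised members were btg1 (6.63-fold) and the RNA-binding gene khdrbs1a, from 910 ± 98.5 to 3124 ± 367 CPM.

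Of 52 tested chromatin genes 31 were kept, 16 (30.8%) were called higher and 9 (17.3%) lower, against 20.8% and 20.3% of all genes. On log2(TPM + 1) 6 were higher and 22 lower, beside 1716 higher and 7425 lower of all 16667 genes. The DNA methyltransferase gene dnmt1, at 2075, 1973 and 1821 CPM an abundant maternal RNA, fell to 657, 609 and 829 CPM (2.80-fold), and the histone methyltransferase gene setdb1a fell 2.95-fold. The insulator factor gene ctcf rose 2.16-fold to 1501 ± 302 CPM. The gene smchd1 itself was kept, at 261, 214 and 208 CPM and then 291, 206 and 180 CPM, with a 95% interval of the log2 change of -0.45 to 0.42. Among 26 linker and variant histones 8 (30.8%) rose and 9 (34.6%) fell, against 20.8% and 20.3% of all genes. The variant genes h2ax (3.25-fold) and h3f3a (4.17-fold) rose, the egg linker histone gene h1m was kept at 1106 ± 78.1 and 1008 ± 118 CPM, and the chaperone genes nasp and both genes with the symbol ASF1B fell 2.72-, 5.04- and 3.26-fold.

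The kept class held the machinery common to both stages. The kept genes of highest TPM with a symbol were actb1, ccnb1, h1m, acp5a, gmnn and fth1a. The actin gene actb1 had 1725, 1697 and 1611 CPM and then 2261, 2086 and 1996 CPM, and cyclin B1 (ccnb1) 1637, 1465 and 1442 CPM and then 1807, 1982 and 2048 CPM. Both passed the test as higher, by 0.33 and 0.36, but were at -0.18 and -0.21 on log2(TPM + 1). The replication inhibitor gene gmnn was at 684 ± 53.4 and 747 ± 92.5 CPM. Kept were 34 of 45 proteasome genes, 41 of 58 basal transcription genes, 47 of 67 ribosome biogenesis genes and 39 of 56 tested translation factors, each a larger share than the 37.1% of all genes. The kept class favours abundant genes and these shares were not adjusted for level, so they do not show that these genes were steadier than others. List medians were 0.00, 0.31, 0.21 and 0.18, and on log2(TPM + 1) they were -0.54, -0.25, -0.35 and -0.42, beside -0.48 for all genes. On that scale 26 proteasome genes were lower and 0 higher, beside 7425 lower and 1716 higher of all 16667 genes. Of 85 ribosomal protein genes 51 (60%) were called higher and 2 lower, against 20.8% and 20.3% of all genes, with a median of 0.49. On log2(TPM + 1) 5 were higher and 21 lower. Their median there was -0.096, above the -0.48 of all genes. Kept were 55 of the 85. The 2 lower in CPM were rplp1 and rplp2. The elongation factor gene eef1a1l1 rose 3.93-fold, from 1070 ± 53.01 to 4204 ± 575 CPM. Of the 13 mitochondrial genes 5 (38.5%) were called higher, against 20.8% of all genes, with a median of 0.75. By limma on log2(TPM + 1) 0 were called and the median was 0.11, against -0.48 for all genes. Mitochondrial counts were 0.579% to 0.973% of the early libraries and 0.918% to 1.89% of the sphere libraries.

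**Figure D4:**
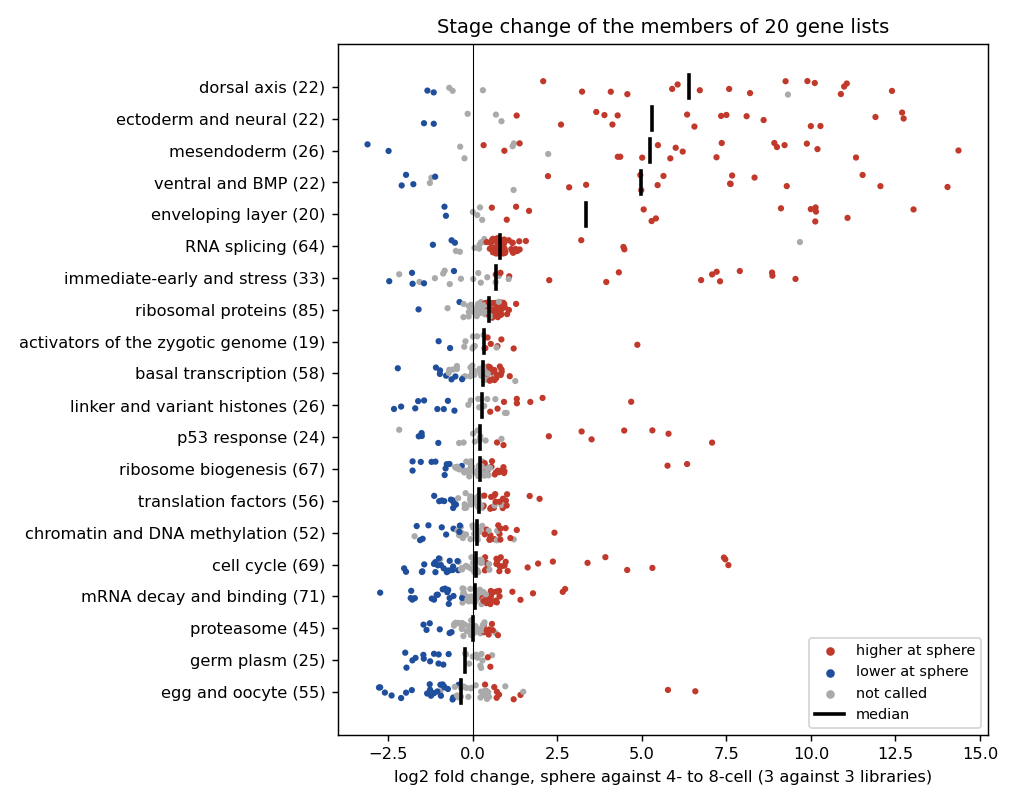
Log2 change between sphere and 4- to 8-cell libraries (x axis) of each tested member of 20 gene lists (rows, number tested in brackets), with red points called higher, blue points called lower, grey points not called and black bars at the medians. The 5 patterning lists have medians of 3.36 to 6.38, splicing genes 0.79, and the germ plasm and oocyte lists -0.23 and -0.35.

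Several egg genes have a close relative used in somatic cells, and for 16 of 21 such pairs both genes could be tested. In 13 of the 16 pairs, of which those of npm2a and npm2b share npm1a, the partner took a larger share of the TPM of the pair in all sphere libraries than in any early library, in 2 a smaller share, and in 1 the ranges overlapped. The routes differed. For sox19b and sox19a the share of the partner went from 0.0395% to 32.7%. Here the egg copy was kept while sox19a went from 0.251, 0.138 and 0.144 CPM to 229, 252 and 216 CPM. The replication helicase genes mcm3l and mcm3 changed likewise, from 1.99% to 32.4%, with mcm3 rising 15.1-fold. For the mitotic kinase genes wee2 and wee1 the share went from 7.20% to 23.5%. For btg4 and btg2 it went from 19.2% to 72.5%, and here the egg copy fell 6.69-fold while btg2 rose 1.60-fold. The TATA-binding protein genes tbpl2 and tbp followed the same route, from 86.5% to 96.9%, with tbpl2 4.66-fold lower and tbp kept at 293 ± 24.8 and 299 ± 30.6 CPM. The pair slbp2 and slbp went from 40.4% to 65.8% and the histone genes h2af1al and h2ax from 40.8% to 78.5%. In pabpc1l and pabpc1a, the poly-A binding proteins, the shift was small, from 73.3% to 86.1%. The importin genes kpna7 and kpna2 both fell and stayed at 65.0% and 61.7%, with overlapping ranges. The 2 opposite shifts were those of the cap-binding genes eif4e1b and eif4ea, where the share of the partner fell from 19.9% to 11.4%, and of zar1 and zar1l, both egg genes, where the share of zar1l fell from 89.1% to 68.9%.

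**Figure D5:**
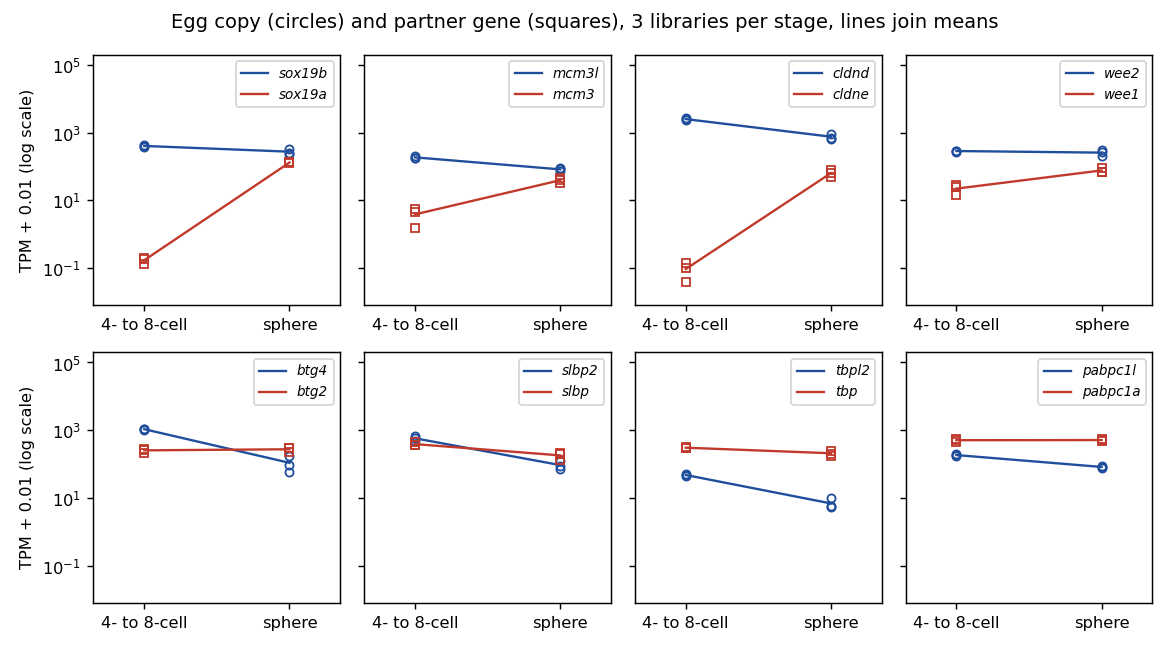
TPM plus 0.01 on a log axis for 8 pairs of an egg gene (circles) and its partner (squares), with each of the 3 libraries per stage as a point and lines joining the stage means. The partners sox19a and cldne rise from near 0, while btg4, slbp2 and tbpl2 fall.

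The MZ libraries gave a second measure of the same developmental step in samples that did not enter the classes. In them 7128 of 16238 genes (43.9%) changed between the stages, 3281 (20.2%) higher and 3847 (23.7%) lower. Their smchd1 level was 6.42 ± 1.23 CPM at 4 to 8 cells and 3.65 ± 0.341 CPM at sphere. Of the 1025 wildtype newly made genes 782 passed the filter in the MZ libraries, of which 706 were called higher and 3 lower, with a median log2 change of 5.33. A gene scarce early in MZ could pass this filter only through its MZ sphere level. The direction of these calls was thus largely set by the filter. Of 1847 genes 2- to 8-fold lower in wildtype 1407 were lower and 10 higher, and of 966 maternal genes that rose 744 were higher and 5 lower. The cleared genes followed least: 51 of 87 were called lower and 2 higher, with a median of -1.50. For kept genes the MZ median was -0.01. Tested directly, the stage change differed between the genotypes for 291 of 16595 genes (1.75%, 178 or 1.07% with a higher and 113 or 0.681% with a lower change in MZ). This count included 14 of 97 cleared genes and 13 of 914 newly made genes. Both classes were chosen by their change in the wildtype libraries that enter this test, which favours a smaller change in MZ, so the direction of these differences supports nothing. It was unstable to single libraries, falling to 31 without MZ sphere replicate 2, to 33 without MZ sphere replicate 3 and rising to 799 without wildtype sphere replicate 3, and MZ sphere replicate 1 was the shallowest library with 7829742 expected counts.

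Some properties that were not used to define the classes differed between them. Length still bears on the classes, since longer transcripts give more reads and the count filter, the CPM limit and the intervals rest on reads. The length differences are therefore not independent of the sorting. Among protein-coding genes with a RefSeq entry, the median transcript length was 2267 bases for kept, 2047 for newly made, 1850 for 2- to 8-fold lower and 1601 for cleared genes, against 2091 for all. In the shortest 10% of maternal coding genes, of 318 to 1007 bases, 31.6% were called lower and 23.6% were more than 2-fold lower, while in the longest 10%, from 4705 bases, these shares were 27.1% and 11.3%. The longest 10% had the smallest share of genes called higher, 8.72%. In the RefSeq order of 12307 coding genes, 75 of 486 newly made genes (15.4%) lay next to another newly made gene, against 7.71% of all coding genes with such a neighbour. For maternal genes that rose these shares were 21.4% and 8.69%, and for kept genes 67.5% and 66.0%. Neighbours can be copies of each other that share reads, which was not tested. Counting only the 479 of the 486 newly made genes without a numbered znf symbol gave 15.0%. Genes with such a symbol could still count as neighbours here. Other families of copies stayed in.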

How the data were processed

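Poly-A RNA of 4- to 8-cell and sphere embryos was sequenced by the authors (paired-end, HiSeq4000). Per the labels, the processing tools were Bowtie and RSEM on danRer10, versions not given in the sources used here. The authors deposited expected counts, TPM and FPKM per gene and library; expected counts were rounded to whole numbers, TPM were used as deposited, and FPKM were not used. Of 31462 identifiers 25758 (81.9%) were given a symbol from the reference tables or the study's supplement. A symbol in capitals marks a gene whose zebrafish copy was not named. 1 ribosomal RNA gene (0.00632% to 0.206% of the wildtype counts) was left out, and 14794 identifiers were not tested, of which 5741 had 0 counts in all 6 libraries. Members and gene lists were chosen with earlier results of these data known.

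The main test was edgeR 4.0.16 (R 4.3.3), a quasi-likelihood test with TMM factors (0.914 to 1.08), a mean normalised count above 10 and Benjamini-Hochberg adjustment over all genes tested, 2-sided. The 95% intervals used the standard error implied by the test. The test was also run on simulated counts with 200 changed genes, as many raised as lowered. This is far fewer than were called in the data. That run therefore cannot show how far the calls depend on the scaling. With 3 libraries per group p-values measure the spread between these pools, and 3 against 3 libraries allow no exact permutation p under 0.1. Genes at 0 early were given a lower bound against 3 counts over the group. The MZ libraries were fitted alone, and the genotype by stage interaction in all 12 libraries.

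Named were the 12 newly made genes of highest sphere TPM, the 12 largest decreases among cleared genes with at least 10 CPM, the 8 largest increases from at least 0.5 CPM, the 8 kept genes of highest TPM, all activators, all pairs, up to 8 called members of each list, the 5 newly made or cleared genes of lowest interaction p, and smchd1. A few genes that the rule names are not reported here. A gene that moved against its list, one at a class limit and a few others were named after their values were seen. Alternatives were other size factors, filters, unrounded counts, DESeq2 1.42.0, limma 3.58.1 on log2(TPM + 1) and log2(TPM + 0.1), all 12 libraries, a replicate block, other gene sets, other class limits, and each library left out in turn. No sequence was analysed here.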

Additional observations from a re-analysis of the deposited data

Results flagged for a closer look

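For 15 of the 268 named genes the change between the stages differed between wildtype and MZ embryos in the fit to all 12 libraries. The test was edgeR's quasi-likelihood interaction test, at an adjusted p under 0.05. Over all genes it called 291 of 16595 (1.75%). Some of the 15 were named because of their low p in this same test, so their number cannot be set against that share. Values are the log2 stage change in MZ minus that in wildtype, and each genotype had 3 libraries per stage. The count over all genes depends strongly on single libraries, and it was far lower with the replicate number as a block. These are therefore values to look at again.

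Of the cleared genes 7 are among them, each with less loss in MZ, a direction favoured by their choice for a large fall in the same wildtype libraries. The difference was 7.86 for tspan18a (-5.29 in wildtype and 2.55 in MZ, fitted apart), 5.84 for ms4a17a.8 (-6.50 in wildtype and -0.69 in MZ, fitted apart) and 5.54 for kctd12b (-4.06 in wildtype and 1.42 in MZ, fitted apart). It was 5.11 for the unnamed gene ENSDARG00000105747 (-5.08 in wildtype and -0.01 in MZ, fitted apart), 3.88 for znf469 (-5.12 in wildtype and -1.26 in MZ, fitted apart), 2.61 for lypla1 (-3.15 in wildtype and -0.57 in MZ, fitted apart) and 2.42 for si:ch211-160j14.2 (-3.53 in wildtype and -1.16 in MZ, fitted apart). In kctd12b and tspan18a the MZ level was already low at 4 to 8 cells, with 0.691 and 0.632 CPM against 14.6 and 5.1 CPM in wildtype.

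The newly made gene si:ch211-165f21.6 differed the other way, by -7.00 (5.29 in wildtype and -1.76 in MZ, fitted apart), with 15.7 CPM in MZ at 4 to 8 cells against 0.074 CPM in wildtype. Similarly BMP2 differed by -3.30 (7.67 in wildtype and 4.33 in MZ, fitted apart), with 4.23 CPM in MZ against 0.526 CPM at 4 to 8 cells and 85.4 against 109 CPM at sphere. Differences were smaller for h3f3d (-0.81), wee2 (-0.74), patl1 (-0.72) and snrpb (-0.65), which rose less in MZ or not at all, and for polr2f (1.04) and setdb1a (0.63).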

How the results depend on the processing

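The counts of wildtype genes called, called over 2-fold, newly made, cleared and kept stayed within 1.5 times their value under the alternatives run, with these exceptions. Called over 2-fold were 6162 genes by limma on log2(TPM + 0.1), against 3978. Newly made were 1911 with no filter on low counts, 374 with a mean count above 50, 665 by limma on log2(TPM + 1) and 553 with a limit of 0.1 CPM, against 1025, so this count follows the depth and the limit set on scarce RNAs. Cleared were 59 with a mean count above 50, 204 by limma on log2(TPM + 0.1) and 1983 with a limit of 2-fold, against 104. From a maternal level, 508 genes rose over 2-fold by limma on log2(TPM + 1) and 567 on log2(TPM + 0.1), against 970. Called over 2-fold lower were 3959 and 4650 genes on these scales, against 1983. A similar count of kept genes does not show that the same genes were kept. Leaving out each library in turn gave 5294 to 6405 called, 3581 to 4002 called over 2-fold, 847 to 1083 newly made, 96 to 142 cleared and 5223 to 6052 kept genes. For the genotype by stage interaction the count was 1447 by DESeq2, and leaving out each library gave 31 to 799, against 291. It was 134 and 131 without wildtype 4- to 8-cell replicates 2 and 3, 132, 106 and 89 without MZ 4- to 8-cell replicates 1, 2 and 3, 114 and 799 without wildtype sphere replicates 1 and 3, and 568, 31 and 33 without MZ sphere replicates 1, 2 and 3, and the cause was not tested. With the replicate number as a block 6075 wildtype genes, 6133 MZ genes and 5 interaction genes were called. Same-numbered libraries had correlations of their deviations of -0.064, -0.031 and -0.017 in wildtype and -0.019, -0.012 and 0.057 in MZ. With 3 libraries per group these values cannot settle whether same-numbered samples share a clutch, and the labels do not say. By limma on log2(TPM + 1) the change turned negative for CCNT2 (-0.14), KIF5B (-0.13), SMARCA4 (-0.22), actb1 (-0.18), ccna1 (-0.23), ccnb1 (-0.21), cdk9 (-0.082), gtsf1 (-0.047) and wee2 (-0.18), and log2(TPM + 0.1) gave the same values to 2 decimals, with -0.083 for cdk9; the median of all genes moved by a similar amount on that scale. Of the other values of 268 named genes 4805 kept their call, 154 lost it, 40 gained it and 52 moved by more than the sphere replicate spread. Depth limits the scarce genes, since 0 reads at 4 to 8 cells bound a fold change only from below and 1 to 3 reads leave a wide interval.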
